A study of Homo sapiens with 6 samples.

Results

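The genes described here are 51 genes of DNA replication and the G1/S transition, in human U2OS cells depleted of CCAR2. They were chosen by name for their known functions and not by a measured value, although earlier results of these data were known. They fall into 5 subgroups, namely E2F factors and cyclin E (7 genes), origin licensing (16), GINS and polymerases (20), nucleotide synthesis (4) and chromatin assembly (4), and are 51 of the 20046 genes with a probe on the array. U2OS is an osteosarcoma cell line grown in culture. Cells were transfected with siCCAR2, a pool of 4 siRNAs against CCAR2, or with siCTRL, the control siRNA that the study calls siLUC, and RNA was taken after 6 days. Each condition had 3 samples, and the study states that the experiment was done in triplicate. Each sample was hybridized to 1 section of a Human HT12_v4 bead array, a chip that reports the brightness of beads carrying gene-specific probes. The siCCAR2 samples are called D, E and F here and the siCTRL samples A, B and C, after their sections of the chip. All 6 sections belonged to 1 chip, and the position on the chip cannot be told apart from the silencing. One cell line, one siRNA pool and one time point were used, and RNA came from the whole culture, so that fewer cells in S phase and less RNA of these genes per cell cannot be told apart.

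Before S phase, E2F transcription factors are held by the retinoblastoma family of proteins until cyclin-dependent kinases, among them that of cyclin E, release them. The E2F factors then drive most of the genes listed here. During G1 the origin recognition complex, CDC6 and CDT1 load the MCM helicase onto origins, which is called licensing. At the onset of S phase the CDC7 kinase, CDC45 and the GINS complex turn the loaded helicase on, primase and the polymerases copy the DNA, nucleotide enzymes supply the building blocks, and assembly factors rebuild chromatin behind the fork. Many of these genes are transcribed mainly in dividing cells and are widely used as markers of proliferation in tumor cell lines such as U2OS.

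The arrays were broadly similar in probes detected, summed signal and correlation, and no values of RNA integrity were examined here. Array B had the smallest share of probes detected (37.2%). Between 37.2% and 41.0% of the 47321 probes had a detection p under 0.01, the summed bead signal per array lay between 3.43e+07 and 4.50e+07, and the correlation between arrays lay between 0.960 and 0.990. CCAR2, the silenced gene, had a normalized log2 signal of 9.88, 9.96 and 9.91 in siCCAR2 arrays D, E and F, against 11.43, 11.34 and 11.01 in siCTRL arrays A, B and C. It fell by 1.34 on the log2 scale (standard error 0.15, adjusted p = 0.0394 from limma), and it was 1 of 3 genes that passed among the 12013 tested. The call of CCAR2 held without siCTRL array B and was lost when any other array was left out, with an adjusted p between 0.0893 and 0.411. Of 7 bone and mesenchymal markers 6 were detected in all 6 arrays, among them VIM, COL1A1 and RUNX2, whereas COL1A2 was detected in none. The blood markers PTPRC, CD3E and HBB and the epithelial markers CDH1, KRT19 and ESRP1 were detected in no array, EPCAM in all 6, and the endothelial markers CDH5, PECAM1 and VWF in 0, 1 and 5 arrays.

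Replication genes lay slightly lower in siCCAR2 cells, and no single one of them passed the test. Of the 51 genes, 49 had a detected probe, and the probe used for each was detected in all 6 arrays, while CCNE2 and GINS1 had none and were not tested. The log2 fold change, siCCAR2 minus siCTRL, was below 0 for 40 of the 49 genes (81.6%) and above 0 for 9, against 49.1% below 0 over all genes tested. Its median was -0.099 over these genes and 0.0042 over all genes, and it ranged from -0.49 for CDC7 to 0.33 for PRIM2. For 34 of the 49 genes the log2 fold change was within 0.2 of 0. A gene counted as called where limma gave an adjusted p of at most 0.05 and the fold change reached 1.5. No replication gene was called, against 0.025% of all genes tested, and the lowest adjusted p was 0.767. At an unadjusted p under 0.05, 5 genes were lower (10.2%, against 3.01% of all genes tested) and 0 were higher (against 3.49% of all genes tested). The 5 were CDC7, PRIM1, GMNN, UHRF1 and TYMS. The siCCAR2 and siCTRL arrays did not overlap for 7 genes that were lower (14.3%, against 5.68% of all genes tested) and for 0 that were higher (against 6.35%), and these were the same 5 genes with CDC45 and GINS2. These counts describe genes measured on the same arrays, which vary together. For 36 of the 49 genes the 95% interval of the fold change lay within 1.5-fold either way, and for the other 13 it did not. The counts depended on single arrays: at an unadjusted p under 0.05, 0 genes were lower without siCCAR2 array D, 2 without siCCAR2 array F and 2 without siCTRL array C. The shares of all genes in these fits are not given here. The median was -0.15 without siCCAR2 array E, -0.16 without siCTRL array A and -0.059 without siCTRL array B, where 30 of the 49 genes lay below 0.

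**Figure D1:**
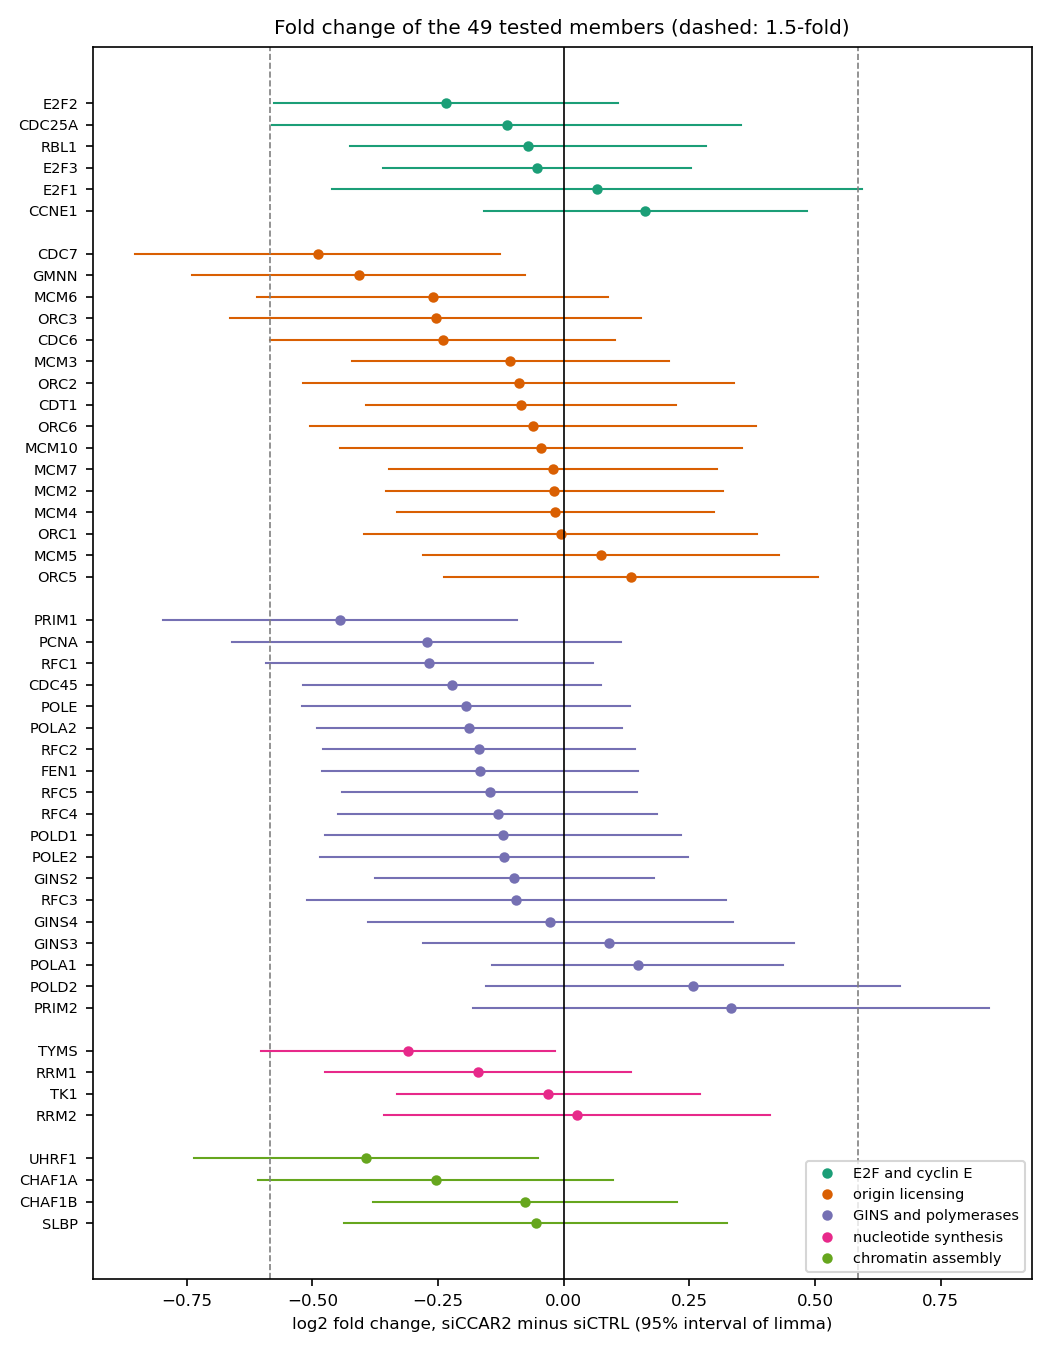
Log2 fold change (siCCAR2 minus siCTRL) of the 49 tested genes, by subgroup, with the 95% interval of limma as a bar. Most points lie between -0.2 and 0.2, and the intervals of CDC7, PRIM1, GMNN, UHRF1 and TYMS lie wholly below 0. The intervals are for single genes and are not adjusted for the number of genes.

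Promoter sequences are shown for 4 of the genes because many of these promoters share letters that the choice of genes did not use. RefSeq windows on GRCh38.p14, from 250 bases before to 50 after the start, were found for 47 of the 51 genes (not for CCNE2, GINS4, MCM4 and MCM5). They were searched on both strands for TTTCGCGC, TTTGGCGC and TTTCCCGC, which are forms of the E2F site, for CCAAT, the core of the NF-Y site, and for TTTGAA, the cell cycle homology region. At least 1 of the 3 E2F forms was present in 23 of the 47 windows (48.9%), against 763 of 27305 windows of the same length (2.79%). CCAAT was in 26 windows (55.3%, against 35.7% of all windows) and TTTGAA in 2 (4.26%, against 15.4%). The 250 bases before the start of UHRF1 (chr19:4909251-4909500, plus strand), TYMS (chr18:657403-657652, plus strand), MCM6 (chr2:135876444-135876693, minus strand) and CDC7 (chr1:91500601-91500850, plus strand) are given 5′ to 3′, with E2F forms and CCAAT, on either strand, in capitals.
UHRF1: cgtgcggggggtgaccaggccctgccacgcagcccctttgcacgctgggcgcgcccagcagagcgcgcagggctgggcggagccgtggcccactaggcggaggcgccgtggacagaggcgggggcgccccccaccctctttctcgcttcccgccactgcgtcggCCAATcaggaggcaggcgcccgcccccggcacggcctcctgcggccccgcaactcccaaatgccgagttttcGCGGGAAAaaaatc
TYMS: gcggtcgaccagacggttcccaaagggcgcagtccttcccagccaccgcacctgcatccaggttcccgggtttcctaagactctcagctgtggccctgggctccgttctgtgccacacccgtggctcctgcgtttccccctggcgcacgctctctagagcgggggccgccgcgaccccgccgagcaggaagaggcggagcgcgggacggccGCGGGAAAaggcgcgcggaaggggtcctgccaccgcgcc
MCM6: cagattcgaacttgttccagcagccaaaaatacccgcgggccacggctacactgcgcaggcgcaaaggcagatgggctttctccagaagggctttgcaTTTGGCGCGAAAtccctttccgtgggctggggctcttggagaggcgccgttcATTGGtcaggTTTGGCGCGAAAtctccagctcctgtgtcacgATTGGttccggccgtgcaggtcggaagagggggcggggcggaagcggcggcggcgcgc
CDC7: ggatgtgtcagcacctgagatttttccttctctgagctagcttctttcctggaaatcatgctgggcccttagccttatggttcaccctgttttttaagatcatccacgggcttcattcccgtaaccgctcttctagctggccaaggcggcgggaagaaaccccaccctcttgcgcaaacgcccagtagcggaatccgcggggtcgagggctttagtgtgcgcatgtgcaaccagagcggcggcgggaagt
UHRF1 and TYMS each hold the third E2F form on the reverse strand, beginning 14 and 39 bases before the start, and UHRF1 also has a CCAAT 86 bases before it. MCM6 holds the first and second forms in 2 places, where they overlap, and CCAAT in 2 places. CDC7, which had the lowest log2 fold change, holds none of these letters, and neither does GMNN, while PRIM1 holds only a CCAAT 18 bases before its start. The median log2 fold change was -0.11 for the 22 tested genes with an E2F form and -0.11 for the 24 without one. A match in letters is a description and not a bound site. Other forms of the E2F site were not searched, so that an absence covers only the 3 forms named.

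Among the E2F factors and cyclin E genes, no member passed the test and the values lay on both sides of 0. The median log2 fold change of the 6 tested genes was -0.061, with 4 below 0 and 2 above. E2F2, an activating E2F factor, had a normalized log2 signal of 11.55, 11.65 and 11.78 in siCCAR2 arrays D, E and F, against 11.66, 11.98 and 12.05 in siCTRL arrays A, B and C. Its log2 fold change was -0.23 (standard error 0.15, unadjusted p = 0.155), with arrays D and E below all 3 control arrays and F within their range. Cyclin E1 is the regulatory partner of CDK2 at the G1/S boundary. Its gene CCNE1 had 11.59, 11.81 and 11.63 in siCCAR2 cells and 11.35, 11.65 and 11.55 in siCTRL cells, a log2 fold change of 0.16 (standard error 0.14, unadjusted p = 0.282). The groups overlapped, although D, E and F were all above the 2 lower control arrays. CDC25A, a phosphatase that activates CDK2, had 7.83, 8.23 and 7.89 in siCCAR2 cells and 7.73, 8.47 and 8.08 in siCTRL cells, with a log2 fold change of -0.11. Its control arrays A and B were the lowest and the highest of all 6. E2F1 had a log2 fold change of 0.066, E2F3 of -0.053 and RBL1, which encodes the pocket protein p107, of -0.070.

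The origin licensing subgroup held CDC7, the gene with the largest difference of all 49, while the median of the subgroup was -0.073. CDC7 encodes the kinase that fires licensed origins by phosphorylating the MCM helicase. Its normalized log2 signal was 9.86, 9.99 and 10.04 in siCCAR2 arrays D, E and F, against 10.29, 10.32 and 10.75 in siCTRL arrays A, B and C. The groups were separated by 0.25, and array C was well above the other two controls. CDC7 averaged 9.96 ± 0.09 in siCCAR2 cells and 10.45 ± 0.26 in siCTRL cells (SD, n = 3 each), which is a log2 fold change of -0.49 (standard error 0.16) or 1.40-fold lower. The unadjusted p of limma was 0.014 and the adjusted p 0.767, and the two-sided exact permutation test gave p = 0.1, the smallest that 3 arrays against 3 allow. Geminin, the product of GMNN, binds CDT1 and prevents origins from being licensed again in the same cycle. GMNN had 10.56, 10.87 and 10.51 in siCCAR2 cells and 11.02, 10.99 and 11.15 in siCTRL cells. Array E was the closest to the controls and stayed 0.12 below the lowest of them. The log2 fold change was -0.41 (standard error 0.15, unadjusted p = 0.021, adjusted p = 0.767).

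MCM6, a subunit of the replicative helicase, had 12.71, 12.57 and 12.64 in siCCAR2 cells and 13.00, 12.63 and 13.07 in siCTRL cells. Control array B lay among the siCCAR2 arrays, so that the groups overlapped, and the log2 fold change was -0.26 (standard error 0.15, unadjusted p = 0.125). With the probe used for each gene, the other helicase subunits had log2 fold changes of -0.018 for MCM2, -0.11 for MCM3, -0.016 for MCM4, 0.074 for MCM5 and -0.022 for MCM7, while the second detected probes of MCM4 and MCM7 had -0.17 and -0.28. Of the origin recognition genes, ORC3 had a log2 fold change of -0.25, ORC2 of -0.089, ORC6 of -0.061, ORC1 of -0.0061 and ORC5 of 0.13. The loaders CDC6 and CDT1 had -0.24 and -0.085, and MCM10, which helps to start the helicase, had -0.046. Over the 16 licensing genes 14 lay below 0 and 2 above, with a median of -0.073, and CDC7 and GMNN were the 2 at an unadjusted p under 0.05.

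**Figure D2:**
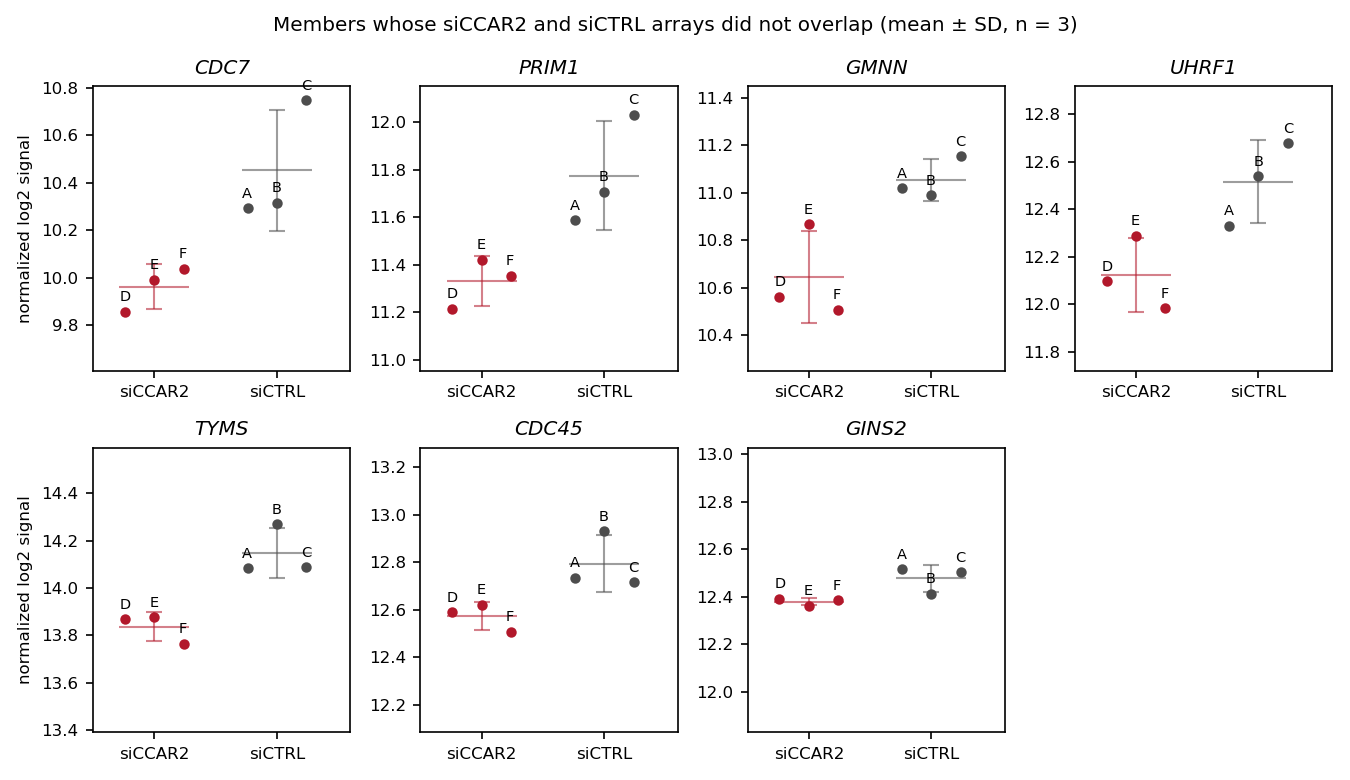
Normalized log2 signal in each array for the 7 genes whose siCCAR2 (D, E, F) and siCTRL (A, B, C) arrays did not overlap, with mean ± SD (n = 3 each). In all 7 panels the 3 siCCAR2 arrays lie below the 3 siCTRL arrays, by 0.25 for CDC7 and by 0.022 for GINS2.

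Of the fork genes, PRIM1 and PRIM2, whose products form one primase that lays down RNA primers, had log2 fold changes of opposite sign. PRIM1, the catalytic subunit, had a normalized log2 signal of 11.21, 11.42 and 11.35 in siCCAR2 arrays D, E and F, against 11.59, 11.71 and 12.03 in siCTRL arrays A, B and C. All siCCAR2 arrays lay below all control arrays, and array C was again the highest. The log2 fold change of PRIM1 was -0.45 (standard error 0.16, unadjusted p = 0.019, adjusted p = 0.767). PRIM2, the regulatory subunit, had 8.11, 8.39 and 8.15 in siCCAR2 cells and 7.81, 8.39 and 7.45 in siCTRL cells. Its control arrays were spread over almost 1 log2 unit and array B was level with array E, so that the log2 fold change of 0.33 had a standard error of 0.23 (unadjusted p = 0.176). The difference between the 2 subunits was not tested.

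CDC45 and the GINS complex travel with the MCM helicase. CDC45 had 12.59, 12.62 and 12.51 in siCCAR2 cells and 12.74, 12.93 and 12.72 in siCTRL cells. GINS2 had 12.39, 12.36 and 12.38 in siCCAR2 cells and 12.52, 12.41 and 12.50 in siCTRL cells. Neither gene overlapped between the groups, although the differences were small, with log2 fold changes of -0.22 for CDC45 (standard error 0.13, unadjusted p = 0.124) and -0.099 for GINS2 (standard error 0.12, unadjusted p = 0.442). GINS3 and GINS4 had 0.090 and -0.026. RFC1, the large subunit of the clamp loader, had 8.72, 9.03 and 8.69 in siCCAR2 cells and 9.00, 9.14 and 9.11 in siCTRL cells, and only array E reached the control range (log2 fold change of -0.27, unadjusted p = 0.096). The other clamp loader genes RFC2, RFC3, RFC4 and RFC5 were also below 0, between -0.17 and -0.094. PCNA, the sliding clamp, had 12.82, 12.80 and 12.79 in siCCAR2 cells and 13.05, 12.78 and 13.40 in siCTRL cells. The siCCAR2 arrays were nearly equal, whereas the controls were spread and array B was the lowest of all 6 (log2 fold change of -0.27, unadjusted p = 0.146). Among the polymerase genes, POLA1 had a log2 fold change of 0.15, POLA2 of -0.19, POLD1 of -0.12, POLD2 of 0.26, POLE of -0.19 and POLE2 of -0.12, and FEN1, which trims Okazaki fragments, had -0.17. Of the 19 tested genes in this subgroup 15 lay below 0 and 4 above, with a median of -0.13, and PRIM1 was the one at an unadjusted p under 0.05.

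Thymidylate synthase, encoded by TYMS, makes the thymidine nucleotide of DNA. TYMS had a normalized log2 signal of 13.87, 13.88 and 13.77 in siCCAR2 arrays D, E and F, against 14.08, 14.27 and 14.09 in siCTRL arrays A, B and C. The groups were separated by 0.21, and the arrays within each group lay close together. The log2 fold change was -0.31 (standard error 0.13, unadjusted p = 0.041, adjusted p = 0.767), or 1.24-fold lower. Ribonucleotide reductase turns ribonucleotides into deoxyribonucleotides. Its large subunit gene RRM1 had 13.21, 13.44 and 13.17 in siCCAR2 cells and 13.48, 13.38 and 13.47 in siCTRL cells (log2 fold change of -0.17, unadjusted p = 0.236), with array E among the controls, and the small subunit gene RRM2 had a log2 fold change of 0.026. The thymidine salvage gene TK1 had 12.57, 12.45 and 12.47 in siCCAR2 cells and 12.52, 12.66 and 12.40 in siCTRL cells, with a log2 fold change of -0.031 and full overlap. The 4 genes had a median of -0.10, with 3 below 0.

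UHRF1 recognizes newly copied DNA that carries methylation on one strand and brings in the maintenance methyltransferase. Its normalized log2 signal was 12.10, 12.29 and 11.98 in siCCAR2 arrays D, E and F, against 12.33, 12.54 and 12.68 in siCTRL arrays A, B and C. Array E and control array A were only 0.041 apart. The log2 fold change was -0.39 (standard error 0.15, unadjusted p = 0.029, adjusted p = 0.767), or 1.31-fold lower. CHAF1A and CHAF1B encode subunits of chromatin assembly factor 1, which places histones on new DNA. CHAF1A had 8.77, 8.57 and 8.63 in siCCAR2 cells and 8.67, 8.94 and 9.13 in siCTRL cells (log2 fold change of -0.25, unadjusted p = 0.137), and array A was below array D. CHAF1B had 10.08, 10.13 and 9.90 in siCCAR2 cells and 10.03, 10.19 and 10.11 in siCTRL cells, with a log2 fold change of -0.077. The histone mRNA binding gene SLBP had -0.056 with the probe used and -0.28 with its second detected probe. All 4 chromatin assembly genes lay below 0, with a median of -0.17.

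Several of these genes have more than 1 probe, and the probes did not always give the same value. The 51 genes have 76 probes, of which 67 were detected in all 6 arrays and 9 in none. With each detected probe tested on its own, 0 of the 67 were called (against 0.0187% of all detected probes) and 5 were lower at an unadjusted p under 0.05 (7.46%, against 2.96% of all detected probes). Of 17 genes with more than 1 detected probe, 15 had all probes on the same side of 0. PCNA and CDC25A were the exceptions. The second PCNA probe had a normalized log2 signal of 8.39, 8.58 and 8.42 in siCCAR2 cells and 8.35, 8.48 and 8.11 in siCTRL cells, a log2 fold change of 0.15 against -0.27 for the first, although both probes are annotated to the same transcript. The second CDC25A probe had 10.36, 10.65 and 10.30 in siCCAR2 cells and 10.36, 10.63 and 10.14 in siCTRL cells, a log2 fold change of 0.058. The second UHRF1 probe had 7.43, 7.50 and 7.54 in siCCAR2 cells and 7.70, 7.62 and 7.34 in siCTRL cells, where the groups overlapped and the log2 fold change was -0.066. Both probes of PRIM1 were below 0, with log2 fold changes of -0.45 and -0.31, as were both of RFC1, with -0.27 and -0.26. In MCM7 the probe not used for the gene had 13.50, 13.35 and 13.20 in siCCAR2 cells and 13.73, 13.56 and 13.60 in siCTRL cells, a log2 fold change of -0.28 without overlap, against -0.022 for the probe used. The probe not used had a log2 fold change of 0.083 in POLD2, -0.21 in MCM10 and -0.038 in FEN1. The probe used had 0.26, -0.046 and -0.17 in these genes. CDC7, GMNN and TYMS had 1 detected probe each.

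**Figure D3:**
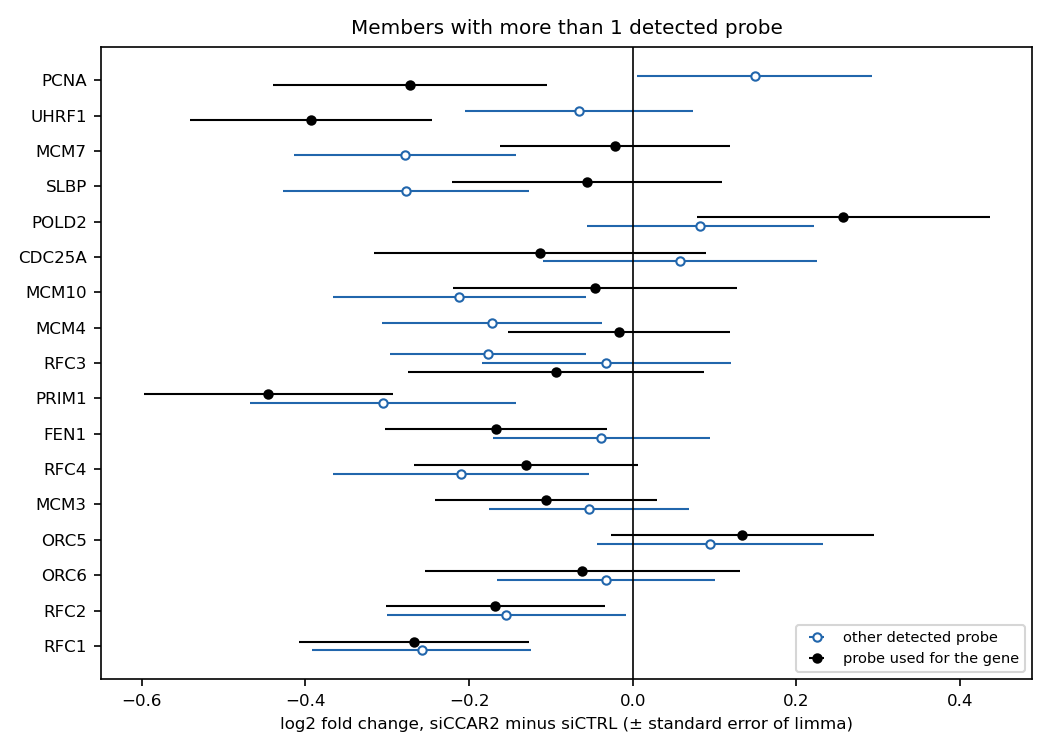
Log2 fold change (siCCAR2 minus siCTRL) of each detected probe of the 17 genes with more than 1, with the standard error of limma as a bar, filled for the probe used for the gene and open for the others. PCNA and CDC25A have probes on both sides of 0, and the probes of UHRF1 lie at -0.39 and -0.066.

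Across the 49 genes, the arrays of a condition differed from each other about as much as the conditions did. The median deviation of the genes from their own mean over 6 arrays was -0.12, 0.019 and -0.11 in siCCAR2 arrays D, E and F, against 0.0045, 0.16 and 0.043 in siCTRL arrays A, B and C. Array E lay above control array A by this measure and below B and C, while D and F lay below all control arrays. Each siCCAR2 array thus lay below the control array with which it deviated together over all genes (D and A, E and B, F and C). The same holds for any pairing that does not couple E with A. Array B stood highest, with 42 of the 49 genes above their own mean and 22 genes at their highest of the 6 arrays, whereas arrays D and F had 11 and 13 genes above their mean. The median standard deviation within a condition was 0.14 in siCCAR2 cells and 0.19 in siCTRL cells for these genes, against 0.16 and 0.20 over all genes tested.

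**Figure D4:**
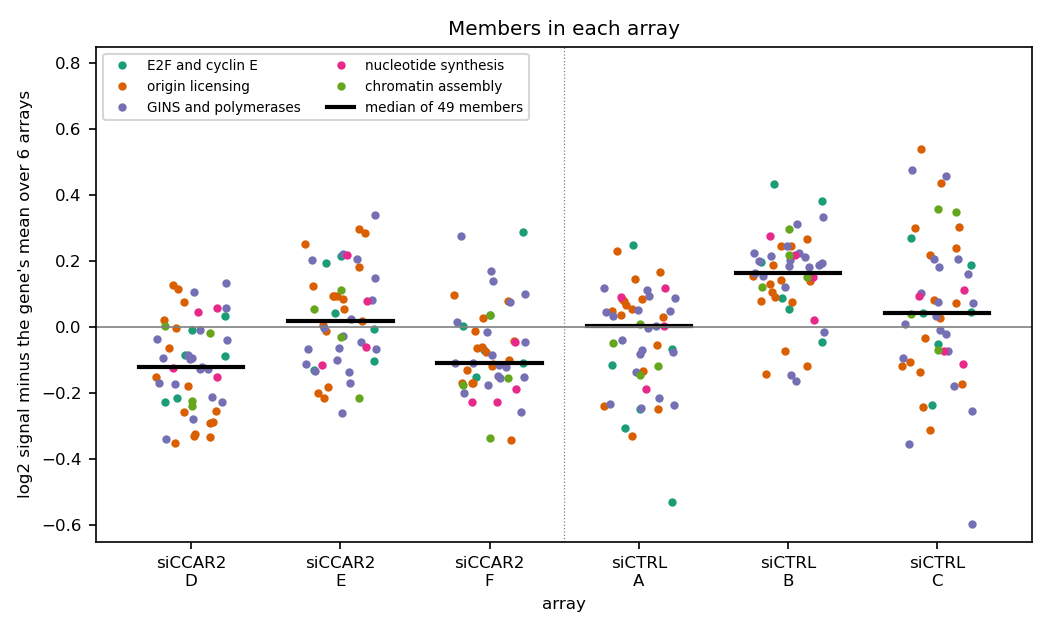
Log2 signal of each of the 49 genes minus its mean over the 6 arrays, by array and colored by subgroup, with the median of the genes as a black line. Array B has the highest median (0.16) and array D the lowest (-0.12), and the line of siCCAR2 array E (0.019) lies above that of siCTRL array A (0.0045).

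The study names its list of changed genes as a paired comparison, but no label says which siCCAR2 and siCTRL samples were prepared together. With the couples D and A, E and B, and F and C as a replicate block, the pairing whose arrays deviated together from their condition means, the median difference of the 49 genes was -0.083, -0.12 and -0.14 in the 3 couples. None of the 49 was called (against 1.66% of all genes tested, or 200 genes, where the fit without the block called 3), and the lowest adjusted p of limma was 0.0597, for CDC7, against 0.767 without the block. With this block and every detected probe tested on its own, the CDC7 probe had an adjusted p of 0.0476, and its fold change of 1.40 stayed under 1.5. At an unadjusted p under 0.05, 6 genes were lower (12.2%, against 8.18% of all genes tested), namely the 5 named before and RFC1, and 1 was higher (2.04%, against 9.09%), PRIM2. The pairing was picked from the same arrays, so that its p-values are not independent of that choice. It also follows the order of the sections on the chip (A, B, C and D, E, F), which does not show which samples were prepared together. With each other pairing as the block, the lowest adjusted p of limma for the 49 genes lay between 0.394 and 0.9999.

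Genes of the same processes outside the list had a similar median. Of 62 further replication genes, 57 were tested, 45 lay below 0 (78.9%, against 49.1% of all genes tested) and 12 above, and the median log2 fold change was -0.098. None was called in limma, against 0.025% of all genes tested. At an unadjusted p under 0.05, 7 were lower (12.3%, against 3.01%) and 1 was higher (1.75%, against 3.49%). The arrays of the conditions did not overlap for 15 genes that were lower (26.3%, against 5.68%) and for 1 that was higher (against 6.35%). With the replicate block for D and A, E and B, and F and C, 13 of the 57 were lower at an unadjusted p under 0.05, against 8.18% of all genes tested. With the same block 2 were higher (against 9.09%) and none was called (against 1.66%). MTBP, a partner of the origin firing factor TICRR, had a normalized log2 signal of 8.01, 8.01 and 8.13 in siCCAR2 arrays D, E and F, against 8.59, 8.32 and 8.51 in siCTRL arrays A, B and C, a log2 fold change of -0.42 (standard error 0.14, unadjusted p = 0.013). The groups did not overlap. HELLS, a chromatin remodeler, had 8.91, 9.07 and 8.86 in siCCAR2 cells and 9.16, 9.35 and 9.45 in siCTRL cells (log2 fold change of -0.37, unadjusted p = 0.026). CMPK1, a pyrimidine nucleotide kinase, had 10.55, 10.68 and 10.51 in siCCAR2 cells and 11.01, 10.73 and 11.27 in siCTRL cells (log2 fold change of -0.43, unadjusted p = 0.029). Neither gene overlapped between the conditions. RRM2B, the ribonucleotide reductase subunit that p53 controls, was the gene higher at an unadjusted p under 0.05, with 10.15, 10.19 and 10.05 in siCCAR2 cells and 9.82, 9.49 and 9.90 in siCTRL cells (log2 fold change of 0.39, unadjusted p = 0.027, adjusted p = 0.767). Its groups did not overlap, and array B was the lowest. POLD4, a small polymerase delta subunit, had 8.39, 8.02 and 8.36 in siCCAR2 cells and 7.94, 7.76 and 8.11 in siCTRL cells (log2 fold change of 0.32, unadjusted p = 0.074). TFDP2, a dimer partner of E2F factors, had 8.18, 8.33 and 7.87 in siCCAR2 cells and 8.02, 8.10 and 7.94 in siCTRL cells (log2 fold change of 0.11, unadjusted p = 0.511). The conditions overlapped for both.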

How the data were processed

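Total RNA of 6 U2OS cultures was hybridized to Human HT12_v4 bead arrays, 3 for siCCAR2 and 3 for siCTRL. The authors deposited a table of non-normalized bead intensities with a detection p-value per probe and array, which per the labels came from BeadStudio 3.8, and a table of normalized intensities on a linear scale, used here only as an alternative. The robust spline normalization that the methods name was not run here. For RNA isolation and labelling the labels and the methods name different kits.

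The non-normalized intensities were put on a log2 scale and then quantile normalized, with no correction for background. Probes detected at a p under 0.01 in at least 1 array were kept, and each symbol was represented by the probe detected in most arrays and then by that of highest interquartile range, which left 12013 genes from 47321 probes. The platform annotation gave 30112 probes 1 symbol, 8 several and 17201 none, and only the first kind was used. siCCAR2 was compared with siCTRL by a linear model with moderated variances (limma 3.58.1, R 4.3.3), fitted on all genes, with Benjamini-Hochberg adjustment over all of them. The fit was run on simulated data, which checked that planted fold changes were returned on average. Noise in the simulation was independent between arrays, so that it cannot speak for p-values where arrays vary together. The p-values of limma set a difference against a moderated spread, which joins a gene's own spread between 3 samples per condition with that of all genes. For GINS2, with SDs of 0.015 in siCCAR2 and 0.056 in siCTRL cells, the standard error was 0.12. The small number of arrays limits how precise the p-values are.

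The labels pair no samples. Deviations from the condition means correlated at 0.615 for arrays D and A, 0.665 for E and B and 0.440 for F and C, over 12013 genes. The genes, the lists of further replication genes and markers, the thresholds and the alternatives were chosen with earlier results of these data known. Full values are given for the 3 genes of each subgroup with the smallest unadjusted p, for those past an unadjusted p of 0.05, without overlap or with probes of opposite sign, and for the 3 smallest p on each side among the further genes. The alternatives tried were background correction by neqc (offset 16), cyclic loess, median scaling, the deposited normalized table, all probes regardless of detection, probes detected in 3 arrays or more, the probe with the highest mean, a variance trend with robust estimation, array weights, leaving out each array, a replicate block under each of the 6 possible pairings, no fold threshold, and a fold change of 2 with an adjusted p of 0.01. Python 3.11.15 with matplotlib 3.10.9 drew the figures.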

Additional observations from a re-analysis of the deposited data

How the results depend on the processing

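No listed gene, no probe of one and no further replication gene was called under the alternatives run for each. Dropping the fold threshold or using stricter thresholds was run for listed genes only, in the fit without a block, and also gave none. The CDC7 probe tested on its own, with the block D-A, E-B, F-C, had an adjusted p of 0.0476 and missed only the fold threshold. That pairing was picked from the same arrays. The median log2 fold change of the listed genes stayed below 0 under all alternatives. A replicate block or a variance trend with robust estimation cannot change this median, so that those fits did not test it. Median scaling alone moved the median of all genes to -0.10, with 69.2% of them below 0, and gave a median of -0.23 for the listed genes and -0.23 for the further ones. CCAR2 kept its direction but was no longer called at -1.41 after neqc (adjusted p = 0.101), -1.48 with median scaling (adjusted p = 0.0682) and -1.34 with the brightest probe per gene (adjusted p = 0.0596), and ranged from -1.47 to -1.26 when single arrays were left out. The cause was not tested. When single arrays were left out, 0 to 5 listed genes were lower and 0 to 2 higher at an unadjusted p under 0.05, and the median of the further genes ranged from -0.16 to -0.060. Array weights put 6 genes lower and 2 higher, with 32 of 49 below 0, a median of -0.060 and a lowest adjusted p of 0.138. With these weights 18 of all 12013 genes were called, where the main fit called 3. Shares of all genes at an unadjusted p under 0.05 are not given for fits without single arrays, with array weights or with pairings other than D-A, E-B, F-C. The counts in those fits therefore lack a background.

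The replicate block gave 1 gene higher for the pairing D-A, E-B, F-C. At -1.34, CCAR2 was no longer called with the block for D-A, E-C, F-B (adjusted p = 0.401), D-B, E-A, F-C (0.545), D-B, E-C, F-A (0.9999) and D-C, E-A, F-B (0.113), and 3 listed genes were lower with the second and the fourth of these pairings. With the block, 200 of all genes were called for D-A, E-B, F-C, 15 for D-C, E-B, F-A and 0 for the other 4 pairings. Of 357 values of single genes under the alternatives, 353 kept their direction. Many of these could not do otherwise, because a replicate block or a variance trend with robust estimation leaves each fold change as it is. Changing the detection filter also returned the fold changes of the main fit for these genes. The count therefore overstates how far the directions were tested. CDC25A turned to 0.058 with the brightest probe per gene and 0.075 with array weights, and ranged from -0.29 to 0.076 when single arrays were left out. TK1 ranged from -0.093 to 0.038 when single arrays were left out. Both turned positive without siCTRL array B. With 3 arrays per condition and 1 probe per gene, differences of the size seen here could not be told from 0 for any of the genes after adjustment.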
